A study of Mus musculus with 8 samples.

Results

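Ccr7, Fscn1, Ccl22, Ccl17, Socs2, Marcksl1, Cacnb3 and Cd200 are genes that mouse dendritic cells switch on when they mature and migrate. They were followed on expression arrays of spleen and lymph node samples from mice with and without a working Aire gene. Members were the genes of this set with at least 1 probe set that carried their symbol alone in the platform annotation. Of the 8 genes, 7 had such probe sets, 18 in all, out of 18193 genes with a single symbol. Cacnb3, the beta 3 subunit of voltage-gated calcium channels, had none and was not analysed here. The 8 arrays fell into 4 groups of 2, labelled A and B: Aire-knockout spleen, Aire wild-type spleen, Aire-knockout lymph node and Aire wild-type lymph node. The comparison asks how RNA in samples from these organs differs where Aire, a transcriptional regulator best known from the thymic epithelium, is lost. The labels give the species, mouse, and total RNA, but no strain, knockout allele, age, sex, cell type, sorting step or pooling of animals. "Spleen" and "lymph node" below mean samples from these organs, which need not be whole organs.

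A dendritic cell that takes up antigen and matures gains the chemokine receptor CCR7, follows CCL19 and CCL21 along lymphatic vessels, and settles in the T cell zone of a lymph node. During that change it builds actin-rich projections with the bundling protein fascin (Fscn1), displays costimulatory molecules, and secretes CCL22 and CCL17, which draw T cells bearing CCR4. In mice, Aire is also expressed outside the thymus by rare cells of lymphoid organs, some of which have features of mature dendritic cells that carry CCR7.

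Ccl22 and Ccl17 encode related chemokines that share their receptor, and they are neighbours on mouse chromosome 8. Cx3cl1 was the only other protein-coding gene annotated between them. Their promoters are shown because this pair was the most variable of the 7 genes across the arrays, as described below. The sequences are the 250 bases before each gene's start, on the plus strand, from RefSeq on GRCm38.p6, at chr8:94745434-94745683 for Ccl22 and chr8:94810203-94810452 for Ccl17. Capitals mark matches to the STAT-type patterns TTCNNNGAA and TTCNNNNGAA, in which N is any base. The patterns are palindromic, so a match on either strand is a match on both.
Ccl22 promoter: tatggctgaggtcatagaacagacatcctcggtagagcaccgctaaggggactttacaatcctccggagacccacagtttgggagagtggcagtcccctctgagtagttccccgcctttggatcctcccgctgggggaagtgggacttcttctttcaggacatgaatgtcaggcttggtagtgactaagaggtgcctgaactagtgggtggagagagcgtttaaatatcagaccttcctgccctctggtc
Ccl17 promoter: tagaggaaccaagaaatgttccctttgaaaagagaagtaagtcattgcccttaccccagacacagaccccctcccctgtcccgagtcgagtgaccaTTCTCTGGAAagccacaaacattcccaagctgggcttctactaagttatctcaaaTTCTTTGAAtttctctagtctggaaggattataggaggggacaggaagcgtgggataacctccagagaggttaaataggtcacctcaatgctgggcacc
The Ccl17 window held TTCTCTGGAA, a match to TTCNNNNGAA, at 154 to 145 bases before the start. It also held TTCTTTGAA, a match to TTCNNNGAA, at 99 to 91 bases before the start. Of 32851 promoter windows of this length, 5.85% held TTCNNNNGAA and 7.02% held TTCNNNGAA. The Ccl22 window held neither of these letter strings. A kappaB consensus, searched on both strands and found in 7.25% of windows, was in neither of the chemokine windows, and this says only that those letters are absent there.

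All values are signals, linear intensities per probe set scaled to a common median over the arrays, in the order array A, array B within a group. Signals of different genes come from different probe sets and are not compared with each other. Each gene was represented by its brightest probe set, and all 7 genes exceeded the filter signal of 59.0 on all 8 arrays. Differences are log2 differences with their standard errors (SE, 2 arrays in each group) from a limma fit to the 11557 genes tested.

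Aire itself, the targeted gene, had signals of 1009 and 2376 in knockout spleen, against 5037 and 5204 in wild-type spleen. It had 791 and 1137 in knockout lymph node, against 3052 and 3535 in wild-type lymph node. In each tissue both knockout arrays were below both wild-type arrays, by a log2 difference of -1.76 ± 0.33 averaged over tissues (limma adjusted p = 0.237). Which part of the transcript this probe set reads relative to the deletion is not known. Xist, expressed from the inactive X chromosome, was at 14.6 and 23.1 on the B arrays of knockout spleen and lymph node and at 3565 or more on the other arrays. The Y-linked gene Eif2s3y was at 21.2 and at the floor of 9.58 on the A arrays of wild-type spleen and lymph node and at 521 or more elsewhere. The A arrays of knockout and the B arrays of wild-type thus had high signals of both genes in each tissue. Sex-linked signals therefore differed within every group of the study as well as between groups. Low Xist was seen only in knockout and low Eif2s3y only in wild-type, so these signals were not balanced by genotype. Whether animals of both sexes were pooled is not given by the labels.

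No gene of the 7, and none of the 11557 tested, passed an adjusted p of 0.05 in any of the 5 contrasts, so the share called was 0% for the members and 0% for all genes. Without adjustment, 1 of the 7 (Ccl17) had p under 0.05 for knockout against wild-type in spleen, where 8.42% of all genes did. None of the 7 did in lymph node, where 3.38% of all genes did, and none in the average over tissues, where 8% did. None of the 7 did for the difference of the knockout effect between the tissues, where 3.42% of all genes did. For spleen against lymph node, 1 of the 7 (Ccl22) had p under 0.05, and 10.7% of all genes did. The labels do not say whether A and B are different animals. Sex-linked signals differed between A and B in every group, so the arrays of a group did not hold the same RNA. A p-value measures the spread between these arrays alone, which includes that difference as well as any technical one. Their small number limits the precision of every value. A lower signal in such samples can come from fewer cells of a type or from less RNA per cell, which cannot be told apart here.

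**Figure D1:**
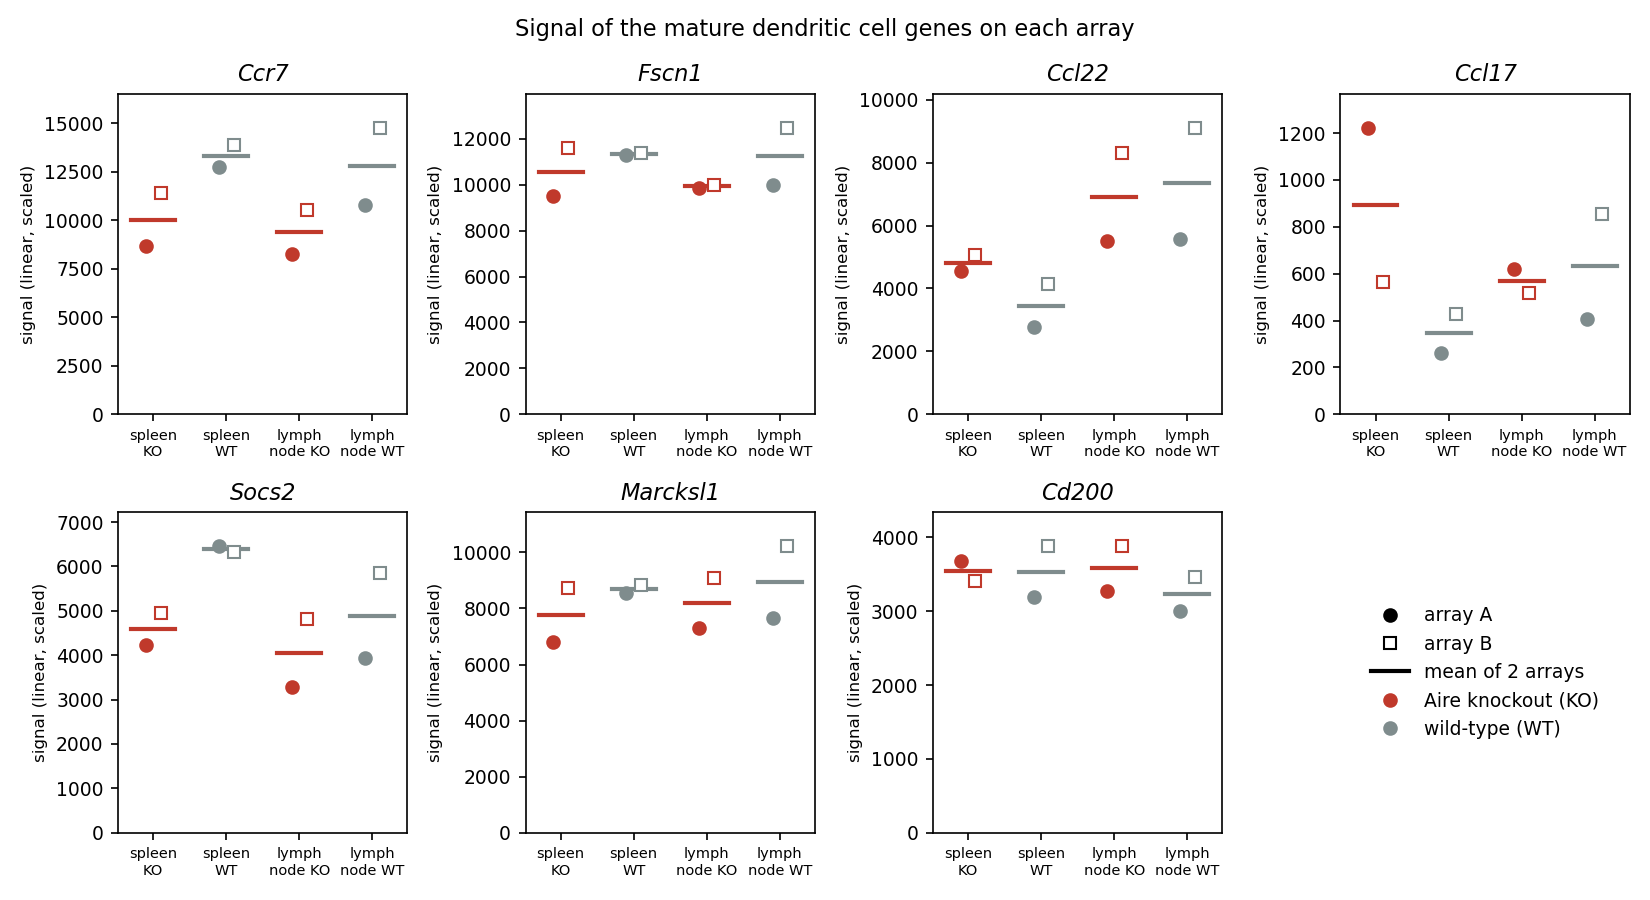
Signal of each of the 7 genes on each array (linear scale, each axis starting at 0), with knockout groups in red and wild-type groups in grey; filled circles are A arrays, open squares B arrays and bars the mean of the 2 arrays. Ccr7 lies lower on both knockout arrays than on both wild-type arrays in each tissue, Ccl17 is highest on knockout spleen array A at 1223, and Cd200 stays between 3007 and 3879 throughout.

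Ccr7, the homing receptor of the set, had signals of 8641 and 11398 in knockout spleen, against 12751 and 13891 in wild-type spleen. In lymph node it had 8241 and 10539 in knockout, against 10783 and 14752 in wild-type. Both knockout arrays lay below both wild-type arrays in spleen and again in lymph node, although the lymph node groups were separated by only the gap between 10539 and 10783. The log2 differences, knockout minus wild-type, were -0.42 ± 0.34 in spleen and -0.44 ± 0.34 in lymph node. Averaged over tissues the difference was -0.43 ± 0.24, or 1.35-fold lower in knockout, with a 95% interval from -0.997 to 0.137 (limma adjusted p = 0.696). The exact permutation test, two-sided and within tissue, gave p = 0.0556, the smallest that its 36 assignments allow. This test shuffled genotype separately in each tissue, as if all arrays were independent. Sex-linked signals repeated by letter in both tissues, so the lymph node pattern need not be an independent repeat of that in spleen. Ccr7 was the only member lower on both knockout arrays in each tissue, a pattern shown by 5.68% of all genes. Between tissues Ccr7 had a log2 difference, spleen minus lymph node, of 0.08 ± 0.24, which was -0.01 without the scaling to a common median.

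The ligands of CCR7, Ccl19 and Ccl21a, were not matched and are not analysed here. Ackr4, the scavenging receptor that removes these ligands, had 4283 and 4492 in knockout spleen, against 5913 and 5847 in wild-type spleen. In lymph node the signals were 2715 and 3587 in knockout, against 3252 and 4663 in wild-type. Its knockout arrays were separate from the wild-type arrays in spleen and overlapped them in lymph node. The averaged log2 difference of Ackr4 was -0.37 ± 0.23 (limma adjusted p = 0.724).

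Fscn1, the actin bundler of dendritic cell projections, had 9491 and 11618 in knockout spleen, against 11279 and 11392 in wild-type spleen. Lymph node signals were 9864 and 10008 in knockout, against 9999 and 12476 in wild-type. The groups overlapped in both tissues. The averaged knockout difference was -0.14 ± 0.21 on the log2 scale, with an interval from -0.65 to 0.37 (limma adjusted p = 0.899). Fscn1 had 3 further probe sets, and all 4 gave a negative averaged difference, between -0.18 and -0.02. Between tissues they disagreed in sign, from -0.54 to 0.05 for spleen minus lymph node, so no tissue direction is given for this gene.

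Marcksl1, a relative of the actin-binding protein kinase C substrate MARCKS, had 6792 and 8719 in knockout spleen, against 8544 and 8828 in wild-type spleen. The lymph node arrays had 7300 and 9100 in knockout, against 7665 and 10213 in wild-type. The knockout and wild-type arrays overlapped in both tissues. The averaged log2 difference was -0.15 ± 0.23, and the 4 probe sets gave values from -0.23 to -0.08. All 4 carry suffixes that mark probes shared with other transcripts (s_at or x_at), so these signals may include related sequences. Marcks, its closest relative, was among the family genes tested and was lower on both knockout arrays in spleen only.

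Ccl22 had 4544 and 5071 in knockout spleen, against 2781 and 4137 in wild-type spleen. In lymph node it had 5500 and 8310 in knockout, against 5579 and 9109 in wild-type. The knockout arrays lay above the wild-type arrays in spleen and overlapped them in lymph node. The log2 differences, knockout minus wild-type, were 0.50 ± 0.41 in spleen (limma adjusted p = 0.788) and -0.08 ± 0.41 in lymph node. Their difference, spleen minus lymph node, was 0.58 ± 0.57 with an interval from -0.78 to 1.94, so the effect of genotype was not shown to differ between tissues.

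Ccl22 was the member with the clearest tissue contrast. All 4 spleen arrays, at 2781 to 5071, lay below all 4 lymph node arrays, at 5500 to 9109, a pattern found for 1.9% of all genes. None of the 7 was higher on all 4 spleen arrays, as 3.82% of all genes were. The log2 difference, spleen minus lymph node, was -0.78 ± 0.29, or 1.72-fold lower in spleen, with an interval from -1.46 to -0.10. Its limma adjusted p of 0.405 did not pass. The exact permutation test, two-sided and of tissue within genotype, gave p = 0.0556, again the smallest possible. It too took the arrays as independent.

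Ccl17 had the widest spread of the set. Its signals were 1223 and 564 in knockout spleen, against 262 and 428 in wild-type spleen. In lymph node they were 622 and 517 in knockout, against 407 and 857 in wild-type. Both knockout spleen arrays lay above both wild-type spleen arrays, and the lymph node groups overlapped, with the wild-type arrays on either side of the knockout arrays. In spleen the log2 difference, knockout minus wild-type, was 1.31 ± 0.54, or 2.48-fold higher, with an interval from 0.03 to 2.59. Its limma adjusted p of 0.586 did not pass. In lymph node the difference was -0.06 ± 0.54. The difference between the tissues, 1.37 ± 0.76, had an adjusted p of 0.999 in limma, so a spleen-specific effect was not shown. Without the A arrays of both knockout groups, an alternative chosen after seeing the data, the spleen difference was 0.75, with an adjusted p of 0.785. Ccl17 was nearly level between the tissues, at -0.13 ± 0.38 for spleen minus lymph node. The receptor of CCL22 and CCL17, Ccr4, stayed below the filter and was not tested.

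**Figure D2:**
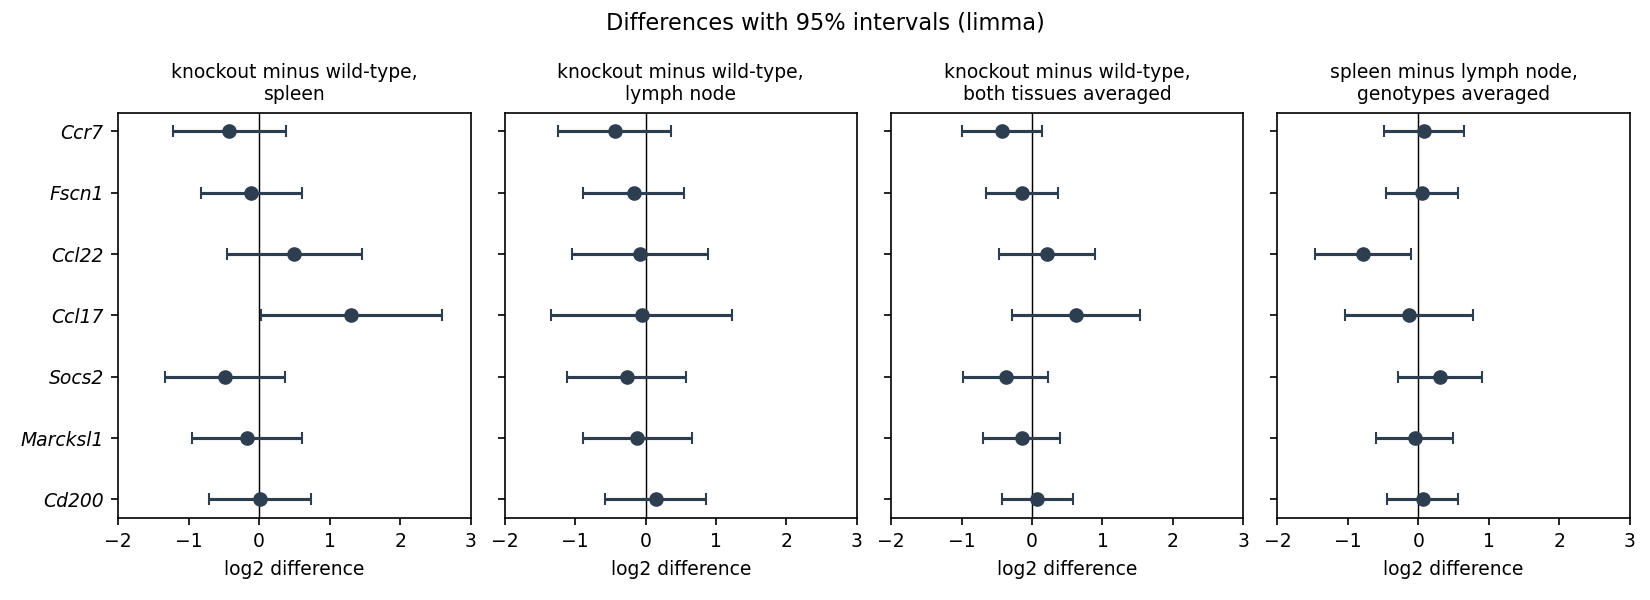
Log2 differences of the 7 genes for knockout minus wild-type in spleen, in lymph node and averaged over tissues, and for spleen minus lymph node over both genotypes, with 95% intervals from limma. The intervals that do not include 0 are those of Ccl17 in spleen, from 0.03 to 2.59, and Ccl22 between tissues, from -1.46 to -0.10; neither passed after adjustment.

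Socs2, a feedback inhibitor of cytokine and growth hormone receptor signalling, had 4219 and 4954 in knockout spleen, against 6452 and 6323 in wild-type spleen. In lymph node the signals were 3279 and 4822 in knockout, against 3926 and 5845 in wild-type. The spleen groups were separate and the lymph node groups overlapped. The log2 differences, knockout minus wild-type, were -0.48 ± 0.36 in spleen and -0.27 ± 0.36 in lymph node, and -0.38 ± 0.25 on average (limma adjusted p = 0.731). The same exact permutation test gave p = 0.111. With Ccr7, it made 2 of the 7 members lower on both knockout arrays in spleen, a pattern of 23.9% of all genes. Ccl22 and Ccl17 made 2 of the 7 higher on both knockout arrays in spleen, against 13.3% of all genes. In lymph node 1 of the 7, Ccr7, was lower on both knockout arrays, against 16.2% of all genes, and none was higher, against 14.6%.

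Socs2 was read by 6 probe sets, which gave averaged knockout differences of both signs, from -0.61 to 0.17. For spleen minus lymph node all 6 were positive, from 0.25 to 0.55, and the probe set that represents the gene gave 0.31 ± 0.25 (limma adjusted p = 0.724). These probe sets read the same RNA on the same arrays and are not replicates of the comparison. The probe set that represents Socs2 carries the s_at suffix, so its signals may include related sequences.

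**Figure D3:**
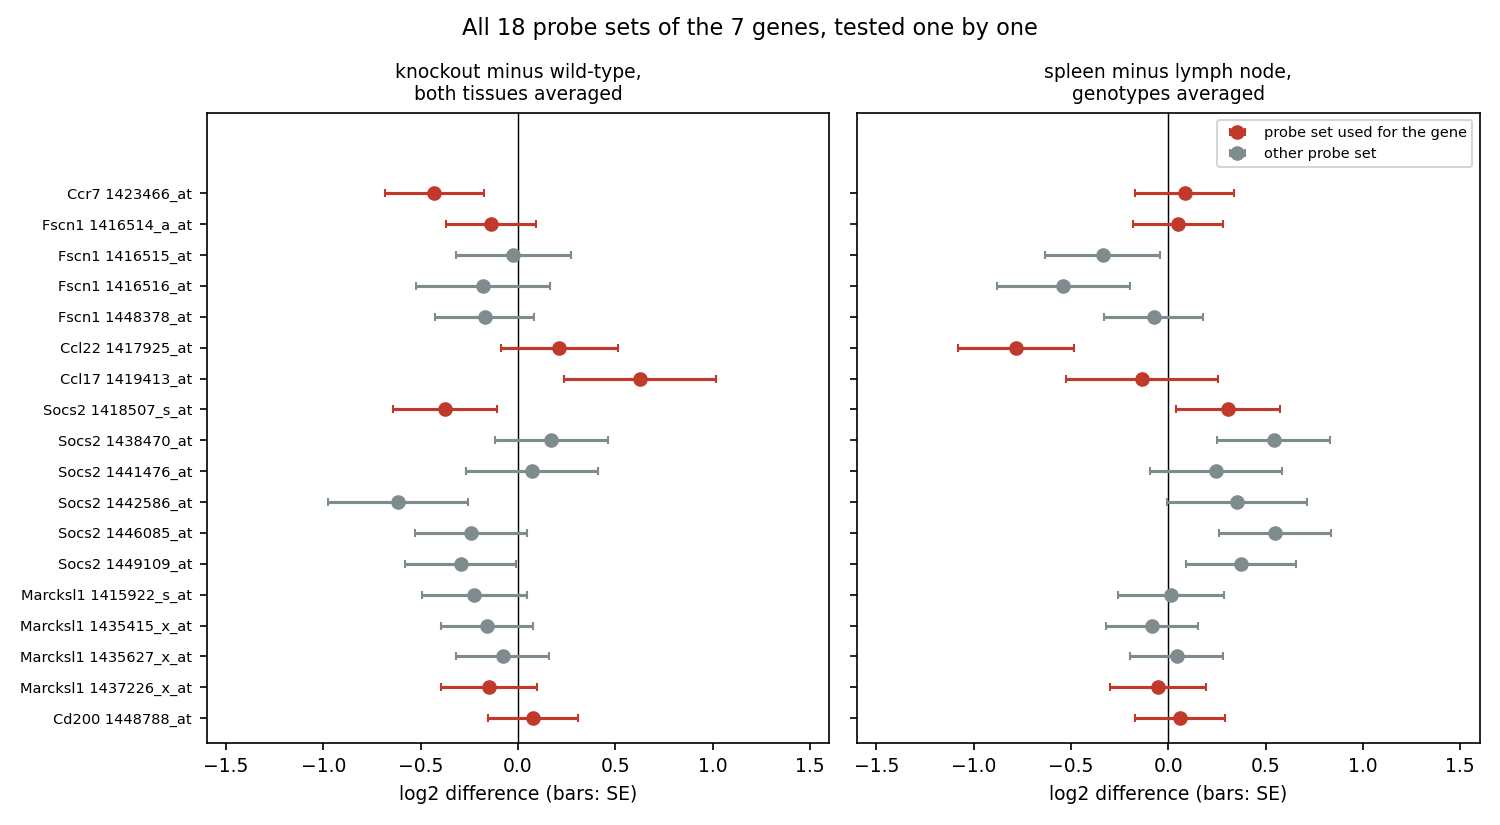
Log2 differences of all 18 probe sets, each with its SE, for knockout minus wild-type averaged over tissues (left) and for spleen minus lymph node over both genotypes (right); red marks the probe set that represents its gene. Socs2 probe sets lie on both sides of 0 at left and all above 0 at right, and the 4 Marcksl1 probe sets all lie below 0 at left, from -0.23 to -0.08.

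Cd200, a membrane ligand that restrains myeloid cells through its receptor, had 3684 and 3413 in knockout spleen, against 3196 and 3878 in wild-type spleen. Lymph node signals were 3281 and 3879 in knockout, against 3007 and 3462 in wild-type. The groups overlapped in both tissues. The averaged knockout difference was 0.08 ± 0.21 on the log2 scale, with an interval from -0.43 to 0.59 (limma adjusted p = 0.946). Cd200r1, the receptor of CD200, stayed below the filter.

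The 7 genes differed in how much they varied. From the lowest to the highest of the 8 arrays the signal differed 1.29-fold for Cd200, 1.31-fold for Fscn1, 1.504-fold for Marcksl1, 1.79-fold for Ccr7, 1.97-fold for Socs2, 3.28-fold for Ccl22 and 4.67-fold for Ccl17. The median over all genes tested was 2.73-fold. Only 0.770% of genes had a range as small as that of Cd200, and 1.09% one as small as that of Fscn1, in a count that did not separate bright from dim genes. Ccl17 exceeded or equalled the range of 75.4% of genes. The array with the highest signal was wild-type lymph node array B for Ccr7, Fscn1, Marcksl1 and Ccl22.

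Over the 8 arrays, Ccr7, Fscn1, Socs2 and Marcksl1 followed each other, with Pearson correlations of log2 signal between 0.72 and 0.89 for their pairs. Ccr7 had a correlation of 0.02 with Ccl22 and -0.37 with Ccl17, and the chemokines had 0.49 with each other. Cd200 had 0.31 or less with Ccr7, Fscn1, Socs2 and Marcksl1. These values describe 8 arrays that share the 4 groups and the letters. Of 10981 named genes compared in the same way, the 3 most like Ccr7 were Icam1 (0.98), Mxd1 (0.98) and Zbed3 (0.98). For Fscn1 they were Hoga1 (0.96), Spred1 (0.95) and Srrm2 (0.94), and for Socs2 Msantd4 (0.99), Ube2e3 (0.99) and Rab12 (0.98). For Marcksl1 they were Polk, Nf1 and Rexo5, all at 0.98. For Ccl22 they were Neto2 (0.97), Sowahc (0.97) and Rassf5 (0.96), and for Ccl17 Npm1 (0.98), Adal (0.96) and Snx27 (0.95). Those of Cd200 were Dcaf7 (0.93), Kti12 (0.91) and Ap3s1 (0.91). Icam1, which encodes an adhesion molecule of the dendritic cell to T cell contact, was the only one of these that also stood among the other listed genes of the mature dendritic cell program.

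The letters went with the signals of the members. Array A was below array B in all 4 groups for 4 of the 7 genes (Ccr7, Fscn1, Ccl22 and Marcksl1), against 10.9% of all genes tested. It was below in 3 groups for Socs2 and Cd200 and in 2 for Ccl17. Of the other program genes, 15 of 36, or 41.7%, were below on array A in all 4 groups. Of the macrophage markers, 6 of 11, or 54.5%, were above on array A in all 4 groups, against 8.05% of all genes. What the letters mark is not given. A fit with a replicate block on the letters, described at the end, called no member, and why the signals went with the letters was not tested.

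The wider program of mature dendritic cells was followed through 40 listed genes, of which 37 were matched and 36 tested. For knockout minus wild-type averaged over tissues, 9 were above 0 and 27 below, with a median log2 difference of -0.25. Of all genes tested, 43.3% were above 0 in this contrast. The 7 members had 3 above 0 and 4 below, with a median of -0.14, and over all genes the median was -0.06. No program gene passed after adjustment. Without adjustment 1 of the 36 had p under 0.05 on the higher side, where 3.65% of all genes did, and 3 on the lower side, where 4.34% did.

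Those on the lower side included the costimulatory receptors Tnfrsf4 (OX40) and Tnfrsf9 (4-1BB). Tnfrsf9 had 700 and 1775 in knockout spleen, against 2485 and 2442 in wild-type spleen, and 879 and 1350 in knockout lymph node, against 1481 and 2152 in wild-type lymph node. Tnfrsf4 had 1333 and 1913 in knockout spleen, against 2662 and 2913 in wild-type spleen, and 942 and 1309 in knockout lymph node, against 1403 and 1870 in wild-type lymph node. In both genes the knockout arrays were separate from the wild-type arrays in each tissue. Their averaged log2 differences were -0.93 ± 0.36 and -0.67 ± 0.25 (limma adjusted p = 0.593 and 0.575). The third was Lad1, which encodes an anchoring filament protein first described in epithelium, at -0.83 ± 0.31. Cd83, a maturation marker that stabilises MHC class II on the surface, and the Rab regulator Tbc1d4 were also lower on both knockout arrays in each tissue, which made 5 of 36 genes, against 5.68% of all genes.

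Cd86 and Cd80, the ligands of CD28, were on the other side and were the only program genes higher on both knockout arrays in each tissue, 2 of 36 against 3.06% of all genes. Cd86 had 2398 and 456 in knockout spleen, against 190 and 265 in wild-type spleen. The lymph node arrays had 2369 and 2160 in knockout, against 1546 and 1448 in wild-type. Knockout spleen array A stood far above its partner. The averaged log2 difference of Cd86 was 1.41 ± 0.50 (limma adjusted p = 0.550) and that of Cd80 was 0.83 ± 0.37 (adjusted p = 0.652). Both are also expressed by activated B cells and macrophages.

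Between tissues, 2 of the 36 program genes had an unadjusted p under 0.05 on the higher side of spleen minus lymph node, where 6.23% of all genes did, and 8 on the lower side, where 4.52% did. The largest was that of Net1, with 407, 357, 109 and 269 on the spleen arrays, against 1282, 3591, 2251 and 4113 on the lymph node arrays. All 4 spleen arrays lay below all 4 lymph node arrays, by a log2 difference of -3.32 ± 0.46 (limma adjusted p = 0.115). Il12b, the shared subunit of interleukins 12 and 23, had 218, 58.0, 42.3 and 90.1 on the spleen arrays, against 178, 859, 537 and 854 on the lymph node arrays. Its arrays overlapped, with knockout lymph node array A among the spleen arrays, and the difference was -2.63 ± 0.64 (adjusted p = 0.276). Cd86 and Cd80 were at -1.93 ± 0.50 and -1.45 ± 0.37, each with an adjusted p of 0.285 in limma. Ccl22, at -0.78, stood on the same side as these genes.

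**Figure D4:**
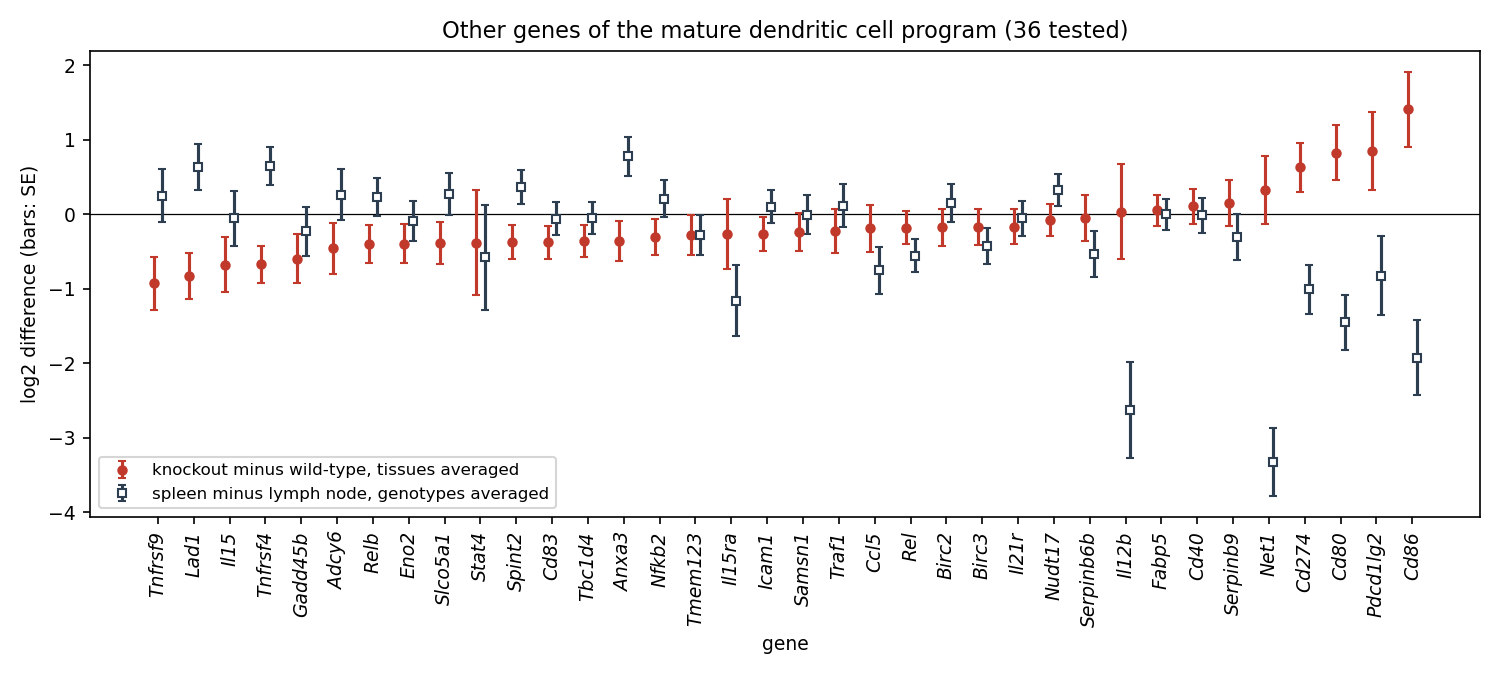
Log2 differences, with SE, of the 36 other program genes for knockout minus wild-type averaged over tissues (red circles, in rising order) and for spleen minus lymph node over both genotypes (open squares). Most red circles lie below 0, with Tnfrsf9 lowest at -0.93 and Cd86 highest at 1.41, and the lowest squares are Net1 at -3.32 and Il12b at -2.63.

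Of 16 listed ligands, receptors and partners of the members, 14 were matched and 11 tested, and none passed after adjustment in any contrast. The muscle-type calcium channel subunit Cacna1s, a pore of the class that calcium channel beta subunits bind, was at 1.10 ± 0.30 for spleen minus lymph node on the log2 scale (limma adjusted p = 0.290). Of 21 listed family members 20 were matched and 11 tested, and none passed. Socs3, a feedback inhibitor of interleukin 6 family signalling, was higher on both knockout arrays in each tissue. Its relative Socs2 was lower on both knockout arrays in spleen only, by the probe set that represents it. The probe sets of Socs2 disagreed in sign for the averaged knockout difference. Socs3 had 539 and 227 in knockout spleen, against 88.7 and 192 in wild-type spleen, and 727 and 413 in knockout lymph node, against 371 and 213 in wild-type lymph node. The averaged log2 difference was 1.19 ± 0.43 (limma adjusted p = 0.552).

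Defining markers of conventional dendritic cells were mixed on these arrays. Of 12 listed, 11 were matched and 9 tested. For knockout minus wild-type averaged over tissues 6 of the 9 were above 0 and 3 below, where 43.3% of all genes were above 0. The median log2 difference of the 9 was 0.13, and none passed after adjustment. Zbtb46, a transcription factor of the conventional lineage, was at 2054 to 3591 over the 8 arrays, with an averaged knockout difference of -0.24 ± 0.26 on the log2 scale. Itgax, which encodes CD11c, had 282 and 212 in knockout spleen, against 124 and 77.2 in wild-type spleen, and 177 and 98.5 in knockout lymph node, against 269 and 133 in wild-type lymph node. Its log2 differences were 1.32 ± 0.50 in spleen and -0.52 ± 0.50 in lymph node (limma adjusted p = 0.559 in spleen). Clec10a, a lectin found on a subset of dendritic cells and on macrophages, was at -0.01 ± 0.72 in spleen and 2.69 ± 0.72 in lymph node. Cd209a was at the floor on all 8 arrays. Which cells carried the RNA of the 7 members is not given by these values.

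Macrophage markers differed both by genotype label and by letter. All 11 were above 0 for knockout minus wild-type in spleen and in lymph node, where 42.6% and 46.8% of all genes were. Their median averaged log2 difference was 2.62, although none passed after adjustment. Their summed signal was 24941 and 3700 in knockout spleen, against 4738 and 2541 in wild-type spleen. In lymph node it was 20193 and 7742 in knockout, against 9099 and 2550 in wild-type. These sums, in which the brightest markers weigh most, overlapped between knockout and wild-type arrays in both tissues. The mean log2 signal of the list did not overlap. It was 9.69 and 7.52 in knockout spleen, against 6.73 and 5.58 in wild-type spleen. In lymph node it was 9.68 and 8.13 in knockout, against 7.70 and 6.04 in wild-type. Of the 11 markers, 3 (Adgre1, Siglec1 and Fcgr1) were higher on both knockout arrays in each tissue, where 3.06% of all genes were. The A array had the higher sum in every group. All 8 proliferation genes and all 4 plasma cell markers were likewise above 0 in each tissue, with medians of the averaged difference of 1.56 and 1.09. Of 4 epithelial markers tested, 4 were below 0 in spleen and 3 in lymph node. Epcam, an epithelial adhesion molecule also found on some dendritic cells, was lower on both knockout arrays in each tissue, at -1.02 ± 0.34 on average (limma adjusted p = 0.524). The summed T cell markers were at 2178 and 586 in knockout spleen, against 912 and 637 in wild-type spleen, and at 1502 and 1645 in knockout lymph node, against 1168 and 1494 in wild-type lymph node. Within this sum the T cell receptor complex genes ran the other way in spleen from Cd4 and Cd8a, which other cells also express. Cd3e had 77.2 and 23.0 in knockout spleen, against 309 and 152 in wild-type spleen, and Cd3d had 31.6 and 25.3, against 71.1 and 64.3. Cd8a had 1030 and 304 in knockout spleen, against 101 and 149 in wild-type spleen, and Cd4 had 844 and 105, against 277 and 20.1. None of these genes passed after adjustment. The summed B cell markers were at 2030 and 411 in knockout spleen, against 649 and 748 in wild-type spleen, and at 1032 and 374 in knockout lymph node, against 642 and 365 in wild-type lymph node. Knockout spleen array A had the highest sums of macrophage, B cell, T cell, proliferation, plasma cell and neutrophil markers. The sums of conventional dendritic cell, blood endothelium and erythroid markers were highest on this array too. Its conventional dendritic cell sum was 13042, against 9446 to 12479 on the other arrays. Members of that sum ran both ways. Irf4 (3983), Sirpa (2799) and Itgax (282) were highest on this array. Zbtb46 (2236), Batf3 (637), Irf8 (2590) and Flt3 (332) were lower on it than on any other spleen array. The neutrophil sum of this array was 8041, against 68.8 to 429 on the other arrays, and its plasma cell sum was 10854, against 481 to 4357. It was also the array with the highest Ccl17 signal and the lowest Fscn1 and Marcksl1 signals. The part of these cell types in the members' values was not tested.

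**Figure D5:**
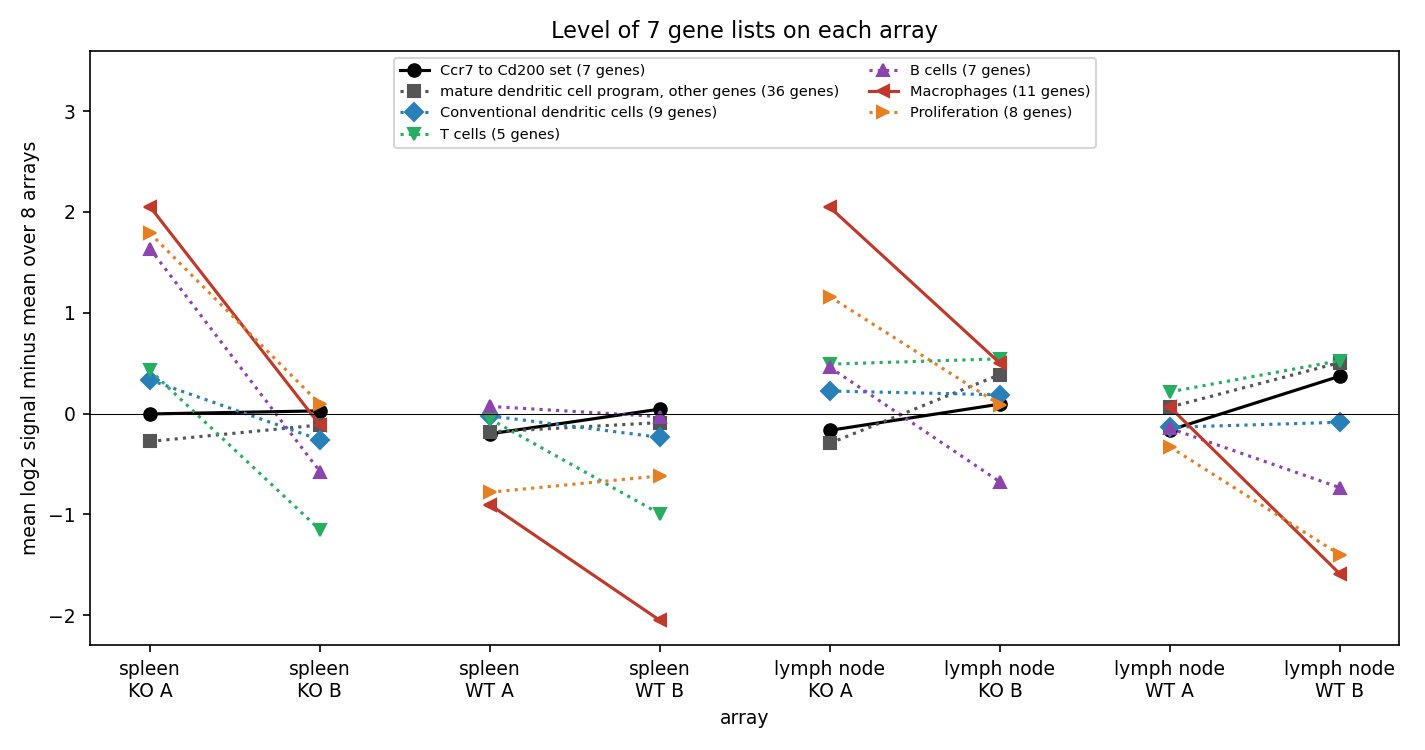
Mean log2 signal of 7 gene lists on each array, minus each list's mean over the 8 arrays; lines join only arrays A and B of a group. Among the 7 lists plotted, the macrophage list (red) spans the widest range and is highest on the knockout A arrays, while the 7 members (black) stay within a narrow band around 0.

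Without the A arrays of both knockout groups the averaged knockout difference of Ccr7 was -0.24, with an adjusted p of 0.923, against -0.43 on all 8 arrays. Ccl22 was then at -0.89 for spleen minus lymph node, with an adjusted p of 0.406. Socs2 had an averaged knockout difference of -0.18 in that fit. These values come from 6 arrays, with 1 knockout array in each tissue that is assumed to vary like the other groups.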

How the data were processed

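The authors deposited intensity signals, 1 per probe set and array on a linear scale, made with MAS5 per the submitters' processing notes. The MAS5 version is not given in the sources. The 2% trimmed mean of every array was 250, so each had been scaled before deposition. Array medians spanned 0.28 on the log2 scale, and each array was therefore scaled to the common median. The 20th percentile of all signals, 9.58, served as a floor before log2 was taken. Each gene was represented by its probe set with the highest mean, and genes above the pooled median of 59.0 on at least 2 arrays were tested. The 4 group means were fitted in R 4.3.3 with limma 3.58.1, with 4 residual and 2.96 prior degrees of freedom, and 5 contrasts were taken. Adjustment was by Benjamini-Hochberg over all genes tested. Exact permutation tests were two-sided and took the arrays as independent.

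The labels put every array in its group. Members, gene lists and tests were chosen with earlier results of these data known. Named genes were the members, Aire, up to 4 genes of each list with the smallest p, and the 3 genes most like each member. Genes named for arrays that did not overlap, for sex-linked signals or for a defining role were chosen after their values were seen. The alternatives changed the normalization, floor, filter, probe set rule, variance prior, replicate block and the arrays left out. The fit was tested on simulated data.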

Additional observations from a re-analysis of the deposited data

How the results depend on the processing

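No member was called under any of the 19 alternatives tried for each of the 30 differences of single genes. Other genes were called under some alternatives. With the trended robust variance prior, 48 of 11557 genes passed for spleen minus lymph node. For knockout minus wild-type that fit called 6 averaged over tissues, 1 in spleen and 0 in lymph node. Fitting every probe set called 2 of 26480 in spleen, 3 in lymph node and 3 averaged over tissues for knockout minus wild-type. The floor at the 40th percentile called 2 genes for that average and 3 for spleen minus lymph node. Of the 570 alternative values, 41 turned sign, in 13 of the 30 differences, and the cause was not tested. The averaged knockout difference of Ccr7 stayed negative, from -0.54 to -0.24 (limma adjusted p 0.404 to 0.9998). The spleen difference of Ccl17 stayed positive, from 0.75 to 1.87 (adjusted p 0.274 to 0.907), and the tissue difference of Ccl22 stayed negative, from -0.96 to -0.61 (adjusted p 0.149 to 0.664). Quantile normalization gave 0.058 for Ccl22 and 0.025 for Marcksl1 (knockout minus wild-type in lymph node), and -0.011 for Fscn1 and -0.041 for Cd200 (spleen minus lymph node). Without the scaling to a common median, spleen minus lymph node was -0.012 for Ccr7, -0.046 for Fscn1 and -0.038 for Cd200. The same change moved the median of all genes in spleen by 0.11 on the log2 scale. There 578 genes then had an unadjusted p under 0.05 on the higher side and 398 on the lower, against 446 and 527 with the scaling. Relative to the median of all genes, the scaled differences were -0.37 for Ccr7 on average, 1.40 for Ccl17 in spleen and -0.84 for Ccl22 between tissues. The mean of all probe sets gave -0.23 for Fscn1 between tissues. Without both knockout A arrays, the knockout differences were 0.036 for Fscn1, 0.0057 for Marcksl1 and -0.045 for Cd200 in spleen. They were 0.22 for Ccl22, 0.0094 for Socs2 and 0.041 for Marcksl1 in lymph node, and 0.023 for Marcksl1 averaged over tissues. Spleen minus lymph node was then -0.029 for Cd200.

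Leaving out 1 array at a time gave these ranges where the sign turned. In spleen, knockout minus wild-type ran from -0.26 to 0.036 for Fscn1, from -0.35 to 0.0057 for Marcksl1 and from -0.13 to 0.15 for Cd200. In lymph node it ran from -0.43 to 0.28 for Ccl22, from -0.59 to 0.48 for Ccl17, from -0.56 to 0.018 for Socs2 and from -0.33 to 0.089 for Marcksl1. Spleen minus lymph node ran from -0.029 to 0.20 for Ccr7, from -0.029 to 0.13 for Fscn1, from -0.41 to 0.15 for Ccl17, from -0.16 to 0.049 for Marcksl1 and from -0.011 to 0.13 for Cd200. A replicate block on the letters called 0 members, with an adjusted p of 0.556 for the average of Ccr7 and 0.266 for the tissue difference of Ccl22. Deviations of arrays with the same letter had correlations of 0.055 to 0.31 between groups, the highest between knockout spleen and knockout lymph node. Sex-linked signals had the same pattern by letter in spleen and lymph node of each genotype. Arrays with the same letter may therefore share animals across tissues, which the labels do not state. The main fit did not treat the letters as pairs and took the arrays as independent. The 2 arrays in a group limit every value.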
